A study of Mus musculus with 6 samples.

Results

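The proteasome subunit genes were taken as every row whose gene symbol begins with *Psma*, *Psmb*, *Psmc* or *Psmd* followed only by a number, which gave 39 of the 23183 gene symbols in the files. They comprise 7 genes of the alpha ring, 4 genes of the beta ring without catalytic activity, 3 constitutive catalytic genes, 3 immunoproteasome catalytic genes, 9 base genes, 8 lid genes, 3 genes of chaperones that assemble the base, and 2 core genes of restricted tissue expression. RNA was sequenced from cerebral microvessels of 3 WT mice (TEK-cre with *Crif1* +/+) and 3 TEKCRIF1 KO mice (TEK-cre with *Crif1* flox/flox), with 1 library per mouse and all mice of the C57BL/6 strain. Cre was driven by Tek in both groups, so the Cre allele itself did not differ between them, and Tek is active in endothelial cells but also in part of the blood lineage. Vessels were prepared from homogenised brain by dextran centrifugation and straining, without a sort of endothelial cells, and the age and sex of the sequenced mice are not given in the sources used here.

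The proteasome degrades proteins that carry ubiquitin chains. Its barrel-shaped core particle is built from outer alpha rings and inner beta rings, and the beta rings hold the proteolytic sites. The regulatory particle that caps it consists of a base, whose ATPases unfold the substrate and open the core, and a lid, which removes the ubiquitin. Interferon-responsive cells can replace the constitutive catalytic subunits with the immunoproteasome subunits, which favour peptides for class I antigen presentation. Subunit genes are known to be transcribed together, in mammals through Nfe2l1, which binds antioxidant response elements.

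The promoters below are shown as examples of motifs upstream of a pair of catalytic genes, a lid gene and a chaperone gene whose values are described further on, and the 4 genes did not share an order of the libraries. RefSeq entries of build GRCm38.p6 were matched for 32 of the 39 genes, and 12 motifs were searched on both strands in the 250 bases before each start. The core of the antioxidant response element, TGACNNNGC, was present in 5 of the 32 windows (15.6%) and in 11.5% of the 27025 promoters in the table. The CCAAT box was present in 13 (40.6%), against 37.5% of all promoters. The ETS motif CCGGAAG was present in 9 (28.1%), against 7.83% of all promoters. The palindrome bound by nuclear respiratory factor 1, a factor other than Nfe2l1, was present in 6 (18.8%), against 4.23%, and the GC box GGGCGG in 18 (56.2%), against 35.4%. The interferon-stimulated response element was present in 3 (9.38%), against 3.46%, a kappa B site in 8 (25.0%), against 19.7%, the TATA box TATAAA in 4 (12.5%), against 14.3%, and a longer form of the ETS motif in 2 (6.25%), against 1.60%. A longer form of the antioxidant response element, the heat shock element and the YY1 motif were each present in 0 of the 32 windows and in under 1% of all promoters. A match of letters is a description and not a measured binding site. Each line gives, on the strand of the gene, the 120 bases that end just before the first base transcribed in either RefSeq or GENCODE, with the named motif in capitals. Distances are counted back from the end of the line. *Psmb5* (chr14:54618023-54618142, minus strand) and *Psmb6* (chr11:70525237-70525356, plus strand) show TGACNNNGC upstream of catalytic genes, beginning 20 and 9 bases before the end of the line. *Psmd11* (chr11:80428495-80428614, plus strand) shows the ETS motif of a lid gene on the reverse strand, beginning 11 bases before the end. *Psmd10* (chrX:140956729-140956848, minus strand) shows a pair of CCAAT boxes on the reverse strand, beginning 30 and 7 bases before the end, upstream of the gene whose level differed most.
Psmb5: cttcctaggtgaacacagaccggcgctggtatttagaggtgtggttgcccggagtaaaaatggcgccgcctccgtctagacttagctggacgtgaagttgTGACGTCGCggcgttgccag
Psmb6: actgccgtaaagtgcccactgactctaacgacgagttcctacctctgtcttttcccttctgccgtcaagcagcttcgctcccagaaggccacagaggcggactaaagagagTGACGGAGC
Psmd11: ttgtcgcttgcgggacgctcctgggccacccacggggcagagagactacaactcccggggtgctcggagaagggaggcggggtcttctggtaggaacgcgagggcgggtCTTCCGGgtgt
Psmd10: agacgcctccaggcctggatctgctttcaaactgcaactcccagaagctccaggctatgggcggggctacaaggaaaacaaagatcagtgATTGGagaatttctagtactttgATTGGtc

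Expression is given as FPKM, a fragment count scaled to the length of the transcript and the size of the library, so levels may be compared between genes. The spacing of the smallest FPKM values gave estimated depths of 9000000 to 11700000 fragments in WT libraries and 6600000 to 12000000 in KO libraries, with KO 2 the shallowest. *Crif1* (*Gadd45gip1*) had 18.8, 15.3 and 16.5 FPKM in WT mice and 10.8, 7.54 and 10.4 FPKM in KO mice, so every KO library was below every WT library. The endothelial markers were present in all libraries, with a summed level of 1033 to 1466 FPKM in WT mice and 928 to 1248 FPKM in KO mice, and 1 of the 10, *Cdh5*, separated between the groups and was lower in KO mice. RNA of other brain cells was present too. The microglia and macrophage markers had sums of 251 to 316 FPKM in WT mice and 200 to 246 FPKM in KO mice, without overlap. Markers of the choroid plexus, an epithelium outside the vessels, summed to between 2946 and 10755 FPKM over the 6 libraries. Astrocyte markers summed to 555 to 627 FPKM in WT mice and 420 to 442 FPKM in KO mice, without overlap. Of the 6 markers *Gfap* and *Gja1* were lower in every KO mouse than in every WT mouse. So were 1 of the 10 microglia and macrophage markers, 2 of the 8 pericyte and smooth muscle markers and 1 of the 6 oligodendrocyte markers. In this direction 5.70% of all genes tested separated, and in the other 5.37%, where 1 of the 7 lymphocyte markers did. The part of these shifts in the subunit comparison was not tested. In such bulk RNA, fewer cells of a type and less RNA per cell cannot be told apart.

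In WT microvessels the constitutive subunit genes were highly expressed, and their levels followed the role of the subunit only loosely. The 39 genes together took 0.574%, 0.588% and 0.634% of all FPKM in the WT libraries in order of their number, and 0.603%, 0.558% and 0.703% in the KO libraries. The share in KO mice thus lay on both sides of the WT range. The median WT mean was 131 FPKM for the constitutive catalytic genes, 121 FPKM for the other beta ring genes, 79.9 FPKM for the base, 71.2 FPKM for the alpha ring and 52.9 FPKM for the lid. It was 11.9 FPKM for the immunoproteasome genes and 9.74 FPKM for the chaperones of the base. Neighbouring roles overlapped widely, since single genes ran from 39.5 FPKM (*Psma1*) to 129 FPKM (*Psma7*) within the alpha ring, from 31.1 FPKM (*Psmc6*) to 136 FPKM (*Psmc3*) within the base and from 27.4 FPKM (*Psmd14*) to 80.6 FPKM (*Psmd8*) within the lid. The plot of all 39 genes by library shows the immunoproteasome and chaperone genes below the constitutive genes in the WT mean, while single libraries met, since *Psmb10* had 26.7 FPKM in WT 3 and *Psmd14* 24.4 FPKM in WT 1.

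**Figure D1:**
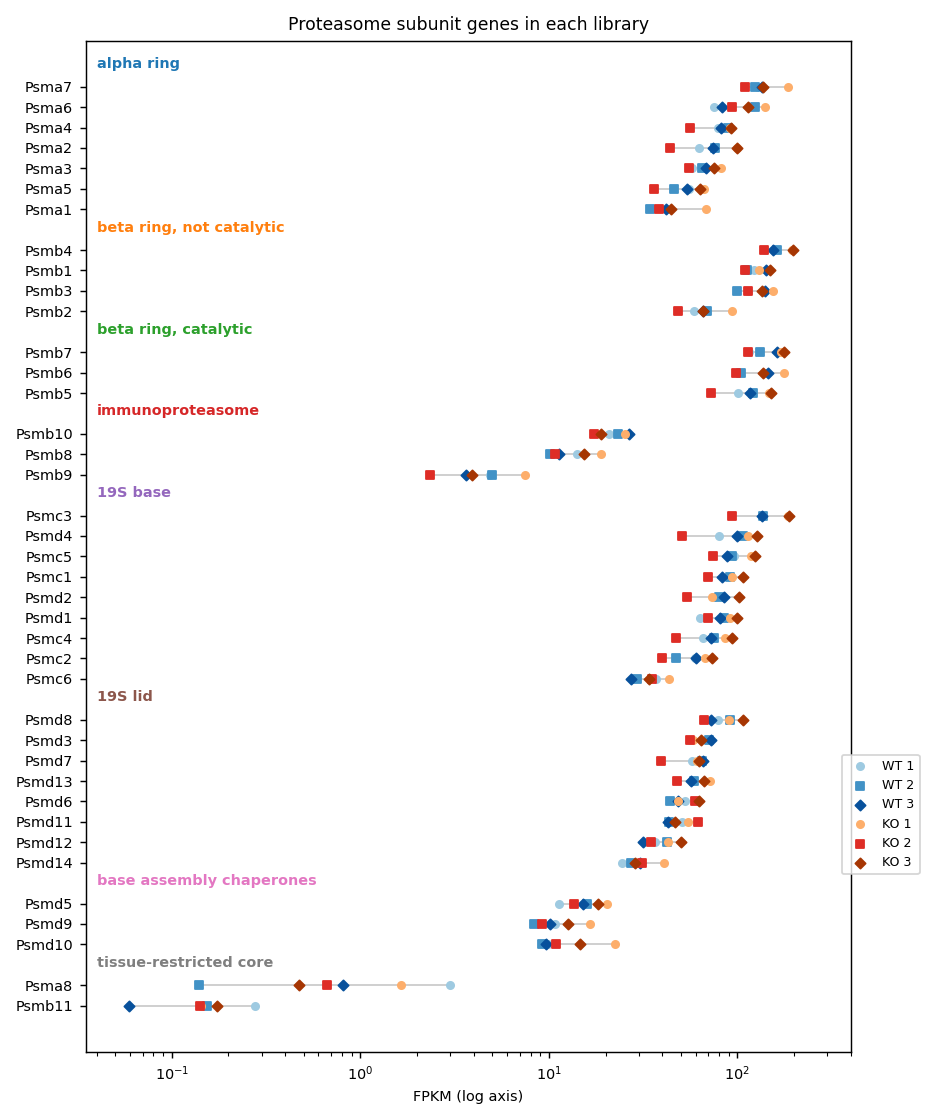
FPKM of each of the 39 proteasome subunit genes on a log axis, grouped by role, with 1 point per library (blue, WT mice; orange to brown, KO mice) and a grey line from the lowest to the highest library. Constitutive subunits lie between 27.4 and 152 FPKM in the WT mean, immunoproteasome and chaperone genes between 4.49 and 23.6 FPKM, and KO 2 (red squares) is the lowest library for 23 of the 38 genes tested.

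KO mice were compared with WT mice gene by gene to ask whether loss of *Crif1*, which is needed for synthesis of the respiratory chain in mitochondria, goes with a change in proteasome gene expression. The comparison used limma on log2(FPKM + 1) over 14247 genes, those averaging 1 FPKM or more across the 6 libraries. Of the 39 genes, 38 passed this limit, and *Psmb11* did not. Before adjustment, limma gave a p under 0.05 for 1 of the 38 genes, *Psmd10*, beside 5.88% of all genes tested. That gene was higher in KO mice, beside 2.77% of all genes, and 0 of the 38 were lower, beside 3.11%. After Benjamini-Hochberg adjustment over all genes, 0 of the 38 passed, where the share over all genes was 0.0%, with 0.841 as the lowest adjusted p from limma. The log2 fold change was above 0 for 30 of the 38 genes, beside 49.2% of all genes. Their median log2 fold change was 0.11, with a range of −0.23 to 0.63, beside a median of −0.01 over all genes. Without KO 1 the number of subunit genes above 0 was 19, and the median was −0.0012. These 38 genes are not independent, since they varied together across the libraries.

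The 3 KO mice did not lie together. KO 1 was above every WT mouse for 30 of the 38 genes, beside 31.1% of all genes tested, and KO 3 for 26, beside 29.2%. Both were above every WT mouse for 22 genes, beside 16.3%. Each was below every WT mouse for 1 gene, KO 1 for *Psmd2*, beside 28.7% of all genes, and KO 3 for *Psmb10*, beside 28.0%. KO 2 was instead below every WT mouse for 23 of the 38 genes, beside 32.6% of all genes, and so the lowest of the 6 libraries for the same 23, beside 25.0%. For 15 genes KO 1 and KO 3 were above and KO 2 was below every WT mouse at once, beside 5.85% of all genes. These 15 comprised 5 of the 7 alpha ring genes, 6 of the 9 base genes, 1 of the 8 lid genes, *Psmb4* of the beta genes without catalytic activity, and *Psmb5* and *Psmb7* of the constitutive catalytic genes. The log2-scale SD was larger in KO than in WT mice for 33 of the 38 genes, beside 64.4% of all genes. On that scale the subunit genes had a median SD of 0.16 among WT mice and 0.37 among KO mice, and over all genes it was 0.24 and 0.34.

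The median deviation of the 38 genes from the WT mean, on the log2 scale, was −0.03, 0.02 and 0.05 in the WT mice, and it was 0.35 in KO 1, −0.25 in KO 2 and 0.30 in KO 3. The base genes had medians of 0.27, −0.48 and 0.39 in the KO mice, and the alpha ring genes had 0.48, −0.24 and 0.25. Lid genes spread less, with 0.20, −0.15 and 0.14. The immunoproteasome genes had 0.63, −0.41 and −0.15, and in KO 3 *Psmb8* was above every WT mouse while *Psmb9* and *Psmb10* were not. Some other properties of the libraries moved with this order. The summed level of the 5 choroid plexus markers (*Ttr*, *Folr1*, *Kl*, *Clic6* and *Kcnj13*) was 3400, 2999 and 2946 FPKM in WT mice and 8913, 3010 and 10755 FPKM in KO mice. All 5 of these markers were higher in KO 1 and KO 3 than in every WT mouse, and the part of choroid plexus RNA in the subunit levels was not tested. The 6 neuron markers summed to 192, 313 and 399 FPKM in WT mice and to 180, 338 and 133 FPKM in KO mice, so KO 1 and KO 3 were below every WT mouse and KO 2 was not. KO 2 also had the lowest estimated depth, 6600000 fragments. Depth did not follow the order in KO 1, which at 8100000 fragments was below every WT library as well, while KO 3 had 12000000. The FPKM values of all genes summed to 539400 in KO 1, 381200 in KO 2 and 449100 in KO 3, against 425200 to 445100 in WT mice, while the median over the genes tested lay between 9.13 and 9.61 FPKM in all 6 libraries. As a share of these sums, given above, the subunit genes of KO 1 lay within the WT range, those of KO 2 below it and those of KO 3 above it. For length and GC content, a gene's deviation was taken from its mean over all 6 libraries, so the libraries are tied to each other. The correlation of this deviation with transcript length, a description over 14151 genes that share each library, was between 0.02 and 0.05 in WT mice (Spearman) and −0.29, 0.29 and −0.14 in KO 1, KO 2 and KO 3. The same correlation with GC content was 0.08, 0.31 and 0.15 in the WT mice and −0.14, −0.25 and −0.03 in the KO mice, which separated the groups. Subunit genes have short transcripts, with a median of 1895 bases against 3384 bases over all genes. With loess trends on length and GC content removed from each library, the median deviations were 0.22, −0.11 and 0.20 in KO mice, in the same order but smaller. The median log2 fold change was then 0.07, and 24 of the 38 genes were above 0.

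**Figure D2:**
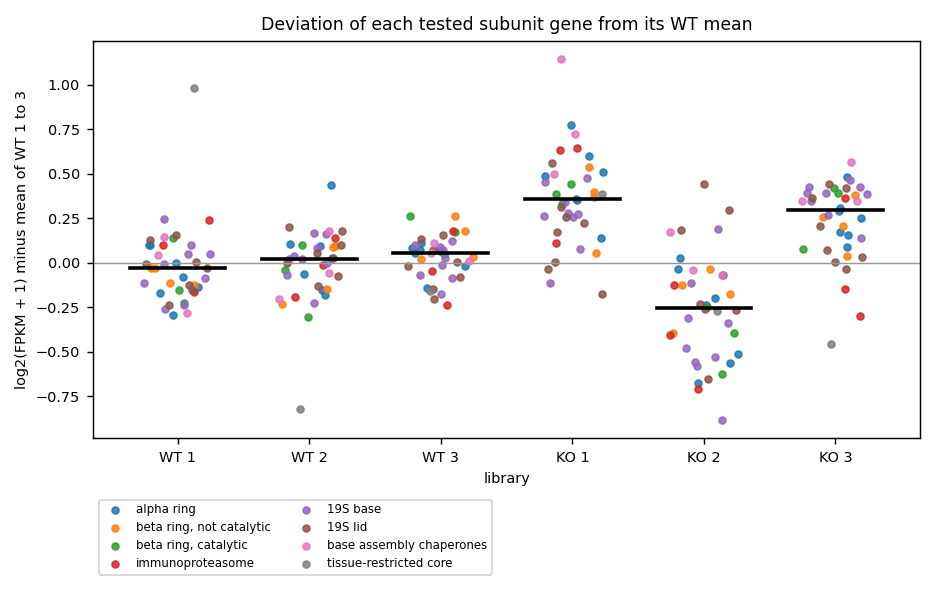
Deviation of each of the 38 tested subunit genes from its mean over the WT mice, on the log2(FPKM + 1) scale, in each of the 6 libraries, with 1 point per gene coloured by role and a black bar at the library median. The medians lie between −0.03 and 0.05 in WT mice, at 0.35 in KO 1 and 0.30 in KO 3, and at −0.25 in KO 2.

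The alpha ring genes, which form the gate of the core, had a median log2 fold change of 0.12, and 6 of 7 were above 0. The median was −0.07 without KO 1 and 0.32 without KO 2. With length and GC trends removed it was −0.0052, and 3 of 7 were above 0. *Psma7*, the most abundant of them, had 129, 123 and 135 FPKM in WT mice and 184, 109 and 137 FPKM in KO mice. *Psma1*, the least abundant, had 42.3, 34.5 and 41.7 FPKM in WT mice and 67.9, 38.4 and 44.5 FPKM in KO mice. KO 1 was the highest library for both genes, and the groups overlapped through KO 2. The log2 fold change was 0.12 (standard error 0.23; 95% interval −0.40 to 0.64; adjusted p = 0.960 from limma) for *Psma7* and 0.30 (standard error 0.24; 95% interval −0.23 to 0.84; adjusted p = 0.881 from limma) for *Psma1*. *Psma2* had 62.8, 76.2 and 74.5 FPKM in WT mice and 99.6, 44.0 and 99.5 FPKM in KO mice. Its KO libraries thus lay well above and well below all WT libraries, and its log2 fold change was 0.10 (standard error 0.31).

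In the beta ring, the genes without catalytic activity had a median log2 fold change of 0.12 (0.06 without KO 1, 0.29 without KO 2), and all 4 were above 0. *Psmb4*, the most abundant of the 39 genes in WT mice, had 140, 161 and 154 FPKM in WT mice and 196, 139 and 198 FPKM in KO mice. *Psmb2* had 58.7, 68.6 and 65.5 FPKM in WT mice and 93.4, 48.5 and 65.8 FPKM in KO mice. KO 2 was the lowest library for both. The log2 fold change was 0.21 (95% interval −0.28 to 0.70) for *Psmb4* and 0.06 (95% interval −0.49 to 0.61) for *Psmb2*.

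The constitutive catalytic genes were compared with the immunoproteasome genes that take their places. *Psmb5* encodes the chymotrypsin-like subunit and lies at chr14:54614119-54618022 (GRCm38), and it had 101, 120 and 116 FPKM in WT mice and 147, 72.4 and 151 FPKM in KO mice. *Psmb8*, which replaces it, lies at chr17:34197721-34201454 and had 14.1, 10.2 and 11.4 FPKM in WT mice and 18.98, 10.7 and 15.4 FPKM in KO mice. Both were highest in KO 1 or KO 3, and the groups overlapped. *Psmb6*, the caspase-like subunit, had 143, 105 and 146 FPKM in WT mice and 176, 98.4 and 137 FPKM in KO mice. *Psmb9*, which replaces it and lies beside *Psmb8* at chr17:34181987-34187764, had 4.85, 4.998 and 3.62 FPKM in WT mice and 7.45, 2.34 and 3.92 FPKM in KO mice. The highest and the lowest *Psmb9* level were both in KO mice. *Psmb7*, the trypsin-like subunit, had 115, 131 and 162 FPKM in WT mice and 170, 113 and 177 FPKM in KO mice. *Psmb10*, which replaces it, had 20.8, 23.3 and 26.7 FPKM in WT mice and 25.4, 17.4 and 18.9 FPKM in KO mice. For *Psmb10*, KO 2 and KO 3 were below all WT mice and KO 1 was within their range.

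Together the immunoproteasome genes gave 9.98%, 9.74% and 8.94% of the FPKM of the 6 catalytic genes in WT mice, and 9.52%, 9.70% and 7.60% in KO mice. Each immunoproteasome gene was then set against its constitutive partner within the same library, which takes out what moves both genes equally. *Psmb8* stood at 13.95%, 8.46% and 9.76% of *Psmb5* in WT mice and at 12.9%, 14.8% and 10.2% in KO mice, with overlapping groups. The difference in log2 ratio was 0.23 (exact two-sided permutation p = 0.4, adjusted over the 3 ratios 0.6), and 0.09 to 0.43 with single libraries left out. *Psmb9* stood at 3.40%, 4.78% and 2.48% of *Psmb6* in WT mice and at 4.23%, 2.38% and 2.86% in KO mice. These groups overlapped as well, with a difference in log2 ratio of −0.12 (exact permutation p = 0.7, adjusted 0.7). With single libraries left out it ran from −0.32 to 0.11, so its sign was not kept. *Psmb10* stood at 18.1%, 17.8% and 16.5% of *Psmb7* in WT mice and at 15.0%, 15.4% and 10.7% in KO mice. Here every KO mouse was below every WT mouse. The log2 ratio averaged −2.47 ± 0.08 over the WT mice and −2.83 ± 0.29 over the KO mice (SD, 3 mice per group), and the exact permutation p of 0.1 (adjusted 0.3) is the smallest that 3 mice against 3 can give. The transcripts differ in GC content, 56.5% for *Psmb10* and 40.8% for *Psmb7*. With the GC trend removed from each library the difference was −0.08 and the groups overlapped (exact permutation p = 0.9). They also overlapped with the length trend removed, at a difference of −0.39. Without KO 3 the difference was −0.19.

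**Figure D3:**
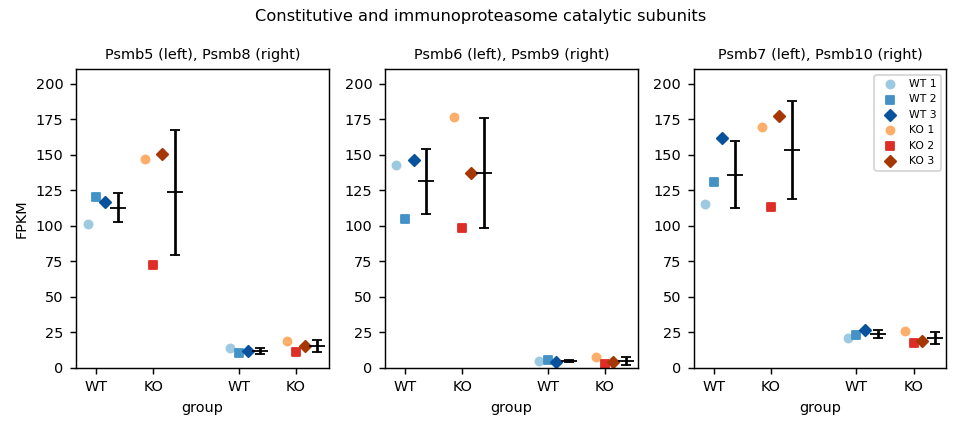
FPKM of each constitutive catalytic gene (left in each panel) and of the immunoproteasome gene that replaces it (right), with 1 point per mouse and the mean ± SD of each group beside the points. In WT mice the immunoproteasome genes stand at 2.48% to 18.1% of their partners, and for each constitutive gene KO 2 is the lowest of the 6 libraries.

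Markers of lymphocytes, cells known to be rich in immunoproteasomes, were low, with a summed level of 2.96 to 7.42 FPKM in WT mice and 3.79 to 10.6 FPKM in KO mice over 7 markers, and *Cd8a* and *Nkg7* were listed at 0 in every library. Microglia and macrophage markers summed to 251 to 316 FPKM in WT mice and 200 to 246 FPKM in KO mice. Their part in the *Psmb10* ratio was not tested.

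Among the base genes the median log2 fold change was 0.06, and 7 of 9 were above 0. Leaving out 1 KO mouse turned the sign of this median, to −0.03 without KO 1 and −0.10 without KO 3, and it was 0.33 without KO 2. *Psmc3*, the most abundant ATPase gene, had 135, 138 and 134 FPKM in WT mice and 186, 93.7 and 188 FPKM in KO mice. Its WT values had an SD of 1.63 FPKM and its KO values an SD of 53.8 FPKM. The KO libraries therefore left the narrow WT range on both sides, with a log2 fold change of 0.13 (standard error 0.28; 95% interval −0.49 to 0.75; adjusted p = 0.963 from limma). *Psmc6*, the least abundant ATPase gene, had 36.8, 29.3 and 27.2 FPKM in WT mice and 43.3, 35.4 and 34.0 FPKM in KO mice. It did not share the low level in KO 2, and its log2 fold change was 0.27 (95% interval −0.19 to 0.72). *Psmd4*, a ubiquitin receptor, had 80.2, 107 and 99.5 FPKM in WT mice and 113, 50.9 and 128 FPKM in KO mice, with KO 2 far below the other 5 libraries. The scaffold genes *Psmd1* and *Psmd2* had log2 fold changes of 0.18 (95% interval −0.31 to 0.66) and −0.11 (95% interval −0.65 to 0.43).

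Among the lid genes the median log2 fold change was 0.15 (0.05 without KO 3, 0.10 without KO 1), and 6 of 8 were above 0. *Psmd14*, the deubiquitinase of the lid, had 24.4, 27.2 and 30.5 FPKM in WT mice and 40.6, 31.2 and 28.7 FPKM in KO mice. *Psmd8*, the most abundant of these 8 lid genes, had 78.5, 91.0 and 72.2 FPKM in WT mice and 90.4, 66.5 and 107 FPKM in KO mice. *Psmd11*, a structural lid gene, had 50.8, 43.3 and 43.0 FPKM in WT mice and 54.6, 62.2 and 46.7 FPKM in KO mice. KO 2 was the highest library for *Psmd11* and the lowest for *Psmd8*, so lid genes did not share a single order. KO 2 was above every WT mouse for 4 of the 38 genes, beside 28.7% of all genes, and these were the lid genes *Psmd6*, *Psmd11* and *Psmd14* and the chaperone gene *Psmd10*. *Psmd7* had the lowest log2 fold change of all subunit genes, at −0.23 (standard error 0.22; adjusted p = 0.917 from limma). Without KO 2 it was −0.02, and *Psmd3* and *Psmb10* were then lower, at −0.10 and −0.09.

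The chaperones of the base bind single ATPases during assembly and are absent from the finished particle. All 3 genes had log2 fold changes above 0, with a median of 0.33, the highest median among the roles (0.15 without KO 1, 0.53 without KO 2). *Psmd10*, also called gankyrin, lies on the minus strand at chrX:140948429-140956728 (GRCm38) and had 9.90, 9.17 and 9.64 FPKM in WT mice and 22.4, 10.9 and 14.6 FPKM in KO mice. Every KO mouse was above every WT mouse, a separation in this direction seen for this 1 gene of the 38, beside 5.37% of all genes tested. In the other direction the groups separated for 0 of the 38 genes, beside 5.70% of all genes, and in either direction for 1, beside 11.1%. *Psmd10* averaged 9.57 ± 0.369 FPKM over the WT mice and 15.95 ± 5.85 FPKM over the KO mice (SD, 3 mice per group), a ratio of 1.67. Its log2 fold change was 0.63 (standard error 0.26; 95% interval 0.04 to 1.21; unadjusted limma p = 0.0375, adjusted p = 0.841; exact permutation p = 0.1, the smallest possible). Without KO 1 the log2 fold change was 0.37, and without KO 2 it was 0.85. Leaving out any library other than KO 2 took the unadjusted p of *Psmd10* past the threshold, although without WT 1, WT 2, WT 3 or KO 3 the log2 fold change was 0.65, 0.60, 0.63 and 0.66. Removing the trend on GC content from each library did so too, with a log2 fold change of 0.49 and an adjusted p of 0.998 from limma.

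*Psmd9* had 10.8, 8.30 and 10.1 FPKM in WT mice and 16.6, 9.21 and 12.6 FPKM in KO mice. *Psmd5* had 11.4, 16.03 and 15.2 FPKM in WT mice and 20.3, 13.6 and 18.2 FPKM in KO mice. Both chaperone genes were highest in KO 1 and overlapped with WT mice through KO 2, with log2 fold changes of 0.33 (95% interval −0.22 to 0.89) and 0.27 (95% interval −0.24 to 0.78).

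Because KO 2 lay apart from the other KO mice for most subunit genes, the comparison was also made without it. Then 8 of the 38 genes had an unadjusted limma p under 0.05, all higher in KO mice, beside 7.31% of all genes higher and 13.1% in either direction, and 0 were lower, beside 5.83%. They were *Psma2*, *Psmb4*, *Psmb5*, *Psmb8*, *Psmc3*, *Psmc5*, *Psmd9* and *Psmd10*, with log2 fold changes of 0.37 to 0.85, and their adjusted p from limma was 0.218 to 0.380. The log2 fold change was above 0 for 34 of the 38 genes, beside 50.2% of all genes, and the median was 0.31. KO 2 is a KO mouse by its label and by its *Crif1* level, which was the lowest of the 6, so the count without it describes the other 2 KO mice only. It was left out for low values in these same genes, so higher counts and a higher median were favoured by that choice.

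**Figure D4:**
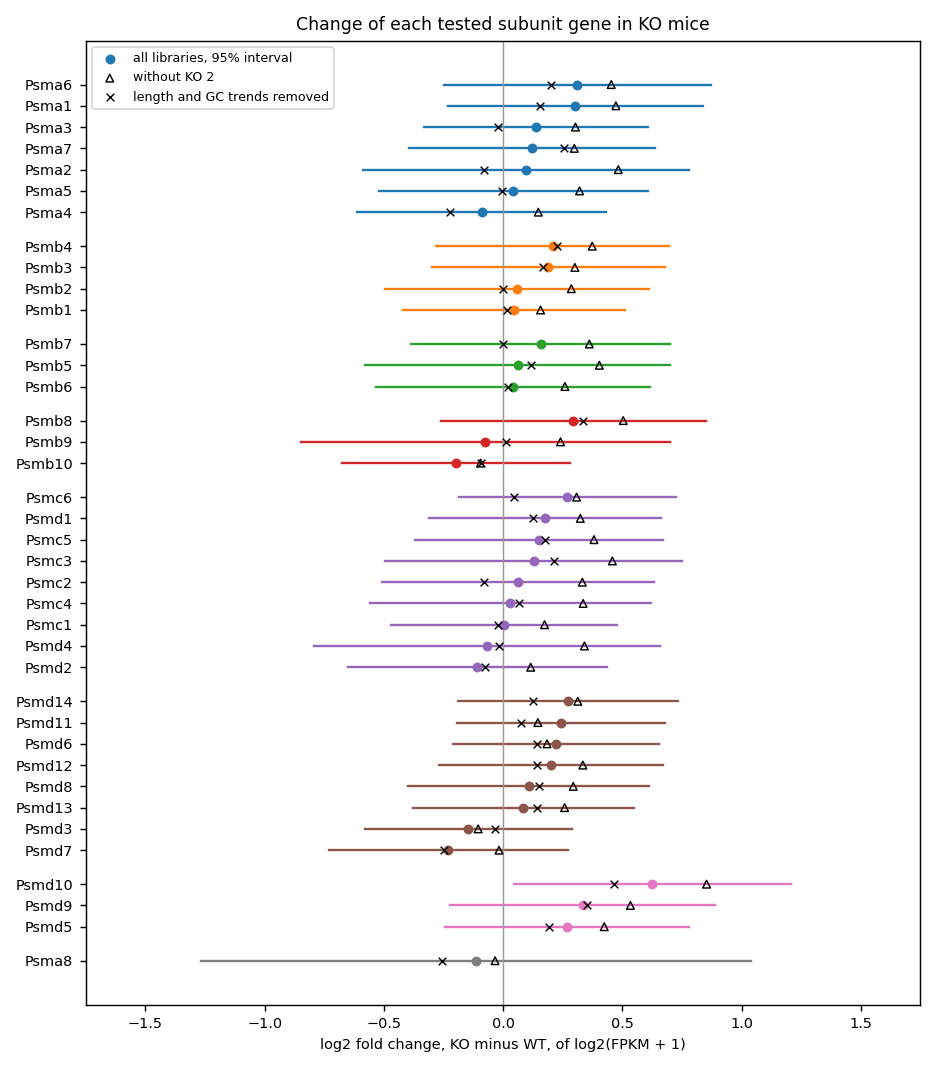
Log2 fold change (KO minus WT) of log2(FPKM + 1) for each tested subunit gene, ordered by role, with its 95% interval from limma over all 6 libraries (filled circles), without KO 2 (triangles), and with length and GC trends removed from each library (crosses). The interval of *Psmd10* (0.04 to 1.21) is the only 1 of the 38 that leaves out 0, and the triangles lie mostly to the right of the circles.

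The remaining core genes are known for other tissues. *Psma8*, a testis form of the alpha ring, had 2.97, 0.139 and 0.807 FPKM in WT mice and 1.63, 0.669 and 0.472 FPKM in KO mice, where 3 fragments on its transcript correspond to between 0.130 and 0.237 FPKM. WT mice thus held both its highest and its lowest value, but the lowest, in WT 2, was under that library's level of 0.174 FPKM for 3 fragments. *Psmb11*, a thymus form of *Psmb5*, had 0.278, 0.154 and 0.0593 FPKM in WT mice and 0.142, 0.141 and 0.173 FPKM in KO mice, where its floor of 3 fragments was 0.0589 to 0.107 FPKM. Its value was at about the floor in WT 3 and above it in the other libraries. No difference between the groups was detectable for *Psmb11* at this depth. Its annotated gene lies near *Psmb5* on the same chromosome, at chr14:54621433-54629556.

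Of 40 further genes of the pathway, 38 were tested, *Nlrc5* fell under the limit on low values, and *Paaf1* was not matched. They cover subunits with other symbols, chaperones of the core, activators, ubiquitin shuttles, transcriptional regulators and genes of class I antigen processing. Before adjustment, 1 of the 38 had a limma p under 0.05, beside the 5.88% of all genes given above, and 0 passed after adjustment. This was *Ubqln2*, which carries ubiquitylated proteins to the proteasome, with 35.7, 41.7 and 53.0 FPKM in WT mice and 28.3, 26.2 and 29.0 FPKM in KO mice. No KO mouse reached the lowest WT mouse. Its log2 fold change was −0.61 (standard error 0.20; unadjusted limma p = 0.0141, adjusted p = 0.841; exact permutation p = 0.1). Without WT 3 it was −0.46, and the unadjusted p no longer passed the threshold. Without overlap between the groups, 2 of the 38 further genes were lower in KO mice, *Ubqln2* among them, beside 5.70% of all genes. In the same way 1 was higher, beside 5.37%, and 3 separated in either direction, beside 11.1%. The gene that was higher was *Psme4*, a nuclear activator of the core, which had 13.6, 14.4 and 14.8 FPKM in WT mice and 15.8, 17.5 and 20.1 FPKM in KO mice. Its log2 fold change was 0.30 (95% interval −0.14 to 0.73; adjusted p = 0.849 from limma).

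*Pomp*, which matures the core, had 105, 108 and 107 FPKM in WT mice and 167, 98.0 and 140 FPKM in KO mice. *Psme1*, a subunit of the interferon-inducible activator, had 96.6, 82.3 and 80.7 FPKM in WT mice and 110, 61.1 and 128 FPKM in KO mice. *Psme2*, its partner, had 98.2, 92.5 and 98.9 FPKM in WT mice and 111, 64.0 and 115 FPKM in KO mice. All 3 had KO 1 and KO 3 above and KO 2 below every WT mouse, the order of the 15 subunit genes above. It was found for 5 of the 38 further genes, beside 5.85% of all genes. *Nfe2l1*, the activator of subunit genes, had 93.8, 93.0 and 76.7 FPKM in WT mice and 89.9, 58.3 and 90.8 FPKM in KO mice, so KO 2 was again the lowest but KO 1 and KO 3 stayed within the WT range. Its log2 fold change was −0.16 (95% interval −0.67 to 0.35; adjusted p = 0.948 from limma), and 0.05 without KO 2.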

How the data were processed

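RNA was extracted with TRIzol, and directional libraries were sequenced as paired ends. According to the methods and the submitters' processing notes, reads were trimmed, mapped with TopHat to mm10 and summarised per gene. The authors deposited FPKM values per gene symbol, 1 column for each of the 6 mice. No normalization between libraries and no version of TopHat is given in the sources used here, and 0 columns of per-sample values were set aside.

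The tests used limma 3.58.1 (R 4.3.3) on log2(FPKM + 1), with a moderated test, a trended prior variance and no further scaling, for genes averaging 1 FPKM or more, with Benjamini-Hochberg adjustment over all 14247 genes. Fold changes on this scale understate changes of low genes. Single genes and ratios were also tested with exact two-sided permutation tests (smallest p 0.1). Python 3.11.15, pandas 2.3.3 and numpy 2.4.6 computed summaries. Lengths, GC content and positions came from GENCODE M21 (GRCm38), and promoters from RefSeq. Depths were estimated from FPKM steps and depend on annotated lengths; floors of 3 fragments cover counting error only. No source used here gives litters or preparation days, so p-values measure the spread between these mice. Named genes were both partners of each catalytic pair, members with an unadjusted p under 0.05 or without overlap, the highest and lowest member of each role, the tissue-restricted members, and fixed pathway genes; *Psma2*, *Psmd1*, *Psmd2*, *Psmd3*, *Psmd4*, *Psmd5*, *Psmd6*, *Psmd7*, *Psmd9* and *Psmd11* were named after their values were seen. Members and lists were chosen with earlier results of these data known. Pathway genes outside this rule are given as counts, and 1 further pathway gene that met it is not reported here but is counted. In all, 17 alternatives were tried.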

Additional observations from a re-analysis of the deposited data

How the results depend on the processing

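Over the 17 alternatives, 18 of the 38 members tested kept the sign of their log2 fold change (15 above 0 and 3 below) and 20 had another sign under at least 1 alternative. The number of members with an unadjusted limma p under 0.05 was 1 with all libraries and 0 without the trended prior variance, with the trend on GC content removed, and with the trends on length and GC content removed, and leaving out single libraries gave 0 to 8. The cause was not tested. The value of 8 came without KO 2, beside 13.1% of all genes, and each other library left out gave 0. The number of members with a log2 fold change above 0 ranged from 19 (without KO 1) to 34 (without KO 2), and the median log2 fold change from −0.0012 to 0.31. The number of further pathway genes with an unadjusted limma p under 0.05 was 1 of 38 with all libraries, beside 5.88% of all genes. It was 3 with quantile normalization, beside 925 of 14247 genes. With libraries left out it ranged from 1 to 6, and the 6 came without KO 2, beside 13.1% of all genes. *Ubqln2* lost its call without WT 3 (log2 fold change −0.46). After adjustment over all genes, 0 members passed under any alternative.

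The replicate numbers of the titles did not pair the samples, since the deviations of same-numbered libraries correlated at 0.04, 0.03 and 0.00 over genes. The column headers of the files carry other numbers, 6 for both WT 2 and KO 3, and no source used here says what they mark. With the replicate number as a block, 1 member had an unadjusted limma p under 0.05, *Psmd10* (adjusted p = 0.777 from limma), and the number over all genes was 871 instead of 838. Estimated depth, between 6600000 and 12000000 fragments, limits what can be said of *Psma8* and *Psmb11*, and 3 mice in each group limit every comparison.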
